A study of Drosophila melanogaster with 2 samples.

Results

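Cabut (cbt), sugarbabe (sug), Mondo and bigmax encode transcription factors of the sugar-sensing network of the fruit fly Drosophila melanogaster. They were examined as 4 of the 11256 genes counted in fly heads, 30 min after flies had been sedated with alcohol. The 4 were picked by name, with their ethanol to control ratios already known, and the reads of each gene were summed over all its RefSeq transcript accessions. Their ratios are therefore a description and were not tested. Messenger RNA came from heads of adult Canton-S females, a wild-type strain, that were 3 to 5 days old and kept on cornmeal food in a light and dark cycle. Flies of the ethanol group were sedated over 15 min in ethanol vapour and then left for 30 min in air without ethanol, whereas control flies spent 45 min in such air. A single library was made per group from about 180 pooled flies, so there is no replicate check and no p-value for the treatment. Food intake and circulating sugar were not measured in these files.

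Mondo is the fly counterpart of the mammalian carbohydrate response element binding protein. It is a basic helix-loop-helix leucine zipper factor that acts as a pair with Mlx, which in flies is encoded by bigmax, and the pair turns on genes when sugar phosphates build up inside the cell. Among the genes that the pair is known to activate in larvae are 2 further transcription factors. One is cabut, a Krüppel-like zinc finger repressor related to mammalian KLF10 and KLF11, and the other is sugarbabe, a zinc finger factor of the Gli-similar family. Cabut is known to repress phosphoenolpyruvate carboxykinase, the first enzyme of gluconeogenesis, and sugarbabe to act on genes of fatty acid synthesis and of sugar and fat digestion. The network has been studied mostly in larval fat body and gut, and adult heads hold fat body as well as brain, eye and muscle.

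Uniquely assigned reads numbered 11763222 in the control and 11027646 after ethanol. The RNA integrity number, a scale of RNA intactness on which higher is better, was 6.80 in the former and 6.40 in the latter. A gene counted as measured if both libraries together gave it at least 50 reads, which 7822 genes reached, all 4 factors among them. The reads on 6 markers of photoreceptors made up 5.20% of the control and 4.63% of the ethanol library, and those on 6 markers of fat body, of 7 listed, 25.6% and 24.8%, so both libraries held RNA of eye and fat body. All 6 fat body markers measured had intervals of the ethanol to control ratio below 1, with a median log2 ratio of -0.13. So had 4 of 6 photoreceptor markers and 2 of 3 measured hemocyte markers (median -0.31), where 15.0% of all measured genes had such intervals. That share is not a like comparison, since intervals narrow as reads increase and many of these markers have very many reads. The fat body markers ran from apoLTP (0.710-fold) to Yp2 (0.982-fold), with Yp1 at 0.963-fold and Yp3 at 0.982-fold. The photoreceptor marker trpl had an interval above 1 (1.29-fold, 1.16 to 1.43). The part of these cell types in the results below was not tested. Of 7 gut markers, 5 had no row in the tables, and the others, Jon99Ciii and Vha100-4, had at most 4 reads in either library. In bulk samples, fewer cells of a type and less RNA per cell cannot be told apart.

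The 2 downstream factors were about 5 times as abundant after ethanol, whereas the level of the upstream factor bigmax stood close to that of the control. For Mondo, the other upstream factor, too few reads were counted to tell. For cbt, 691 reads were counted in the control library and 3259 in the ethanol library. Scaled by library totals (RPM), this was 58.7 RPM against 296 RPM, a 5.03-fold rise with a 95% interval of 4.63 to 5.47. Intervals of ratios here are exact Clopper-Pearson intervals and leave out any difference between pools or between library preparations, since they hold counting error alone. They take each read as independent. Many of the lowest read numbers were even, and no source used here says whether both reads of a pair were counted. If they were, the intervals would be too narrow even for counting error, which was not tested. The Krüppel-like factor was thus well detected in both libraries and higher after ethanol, and the counting intervals of its reads, 640 to 744 and 3148 to 3373 (exact Poisson), lay far apart. For sug, 1545 control and 7119 ethanol reads were counted, or 131 and 646 RPM. That was a 4.92-fold rise (4.65 to 5.20), so the intervals of the cbt and sug ratios overlapped. The 2 ratios differed by 0.034 on the log2 scale.

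The sugar sensor itself was scarce in these counts. Mondo had 29 control and 31 ethanol reads, a ratio of 1.14 with an interval from 0.665 to 1.96. A difference was thus not detectable at this number of reads. The interval runs from a fall of about 1.5-fold to a rise of nearly 2-fold. Its partner bigmax was well counted, with 964 and 949 reads. The bigmax ratio was 1.05, and its interval of 0.959 to 1.15 included 1. Unlike for Mondo, that interval leaves little room for a change in either direction as far as counting error goes.

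**Figure D1:**
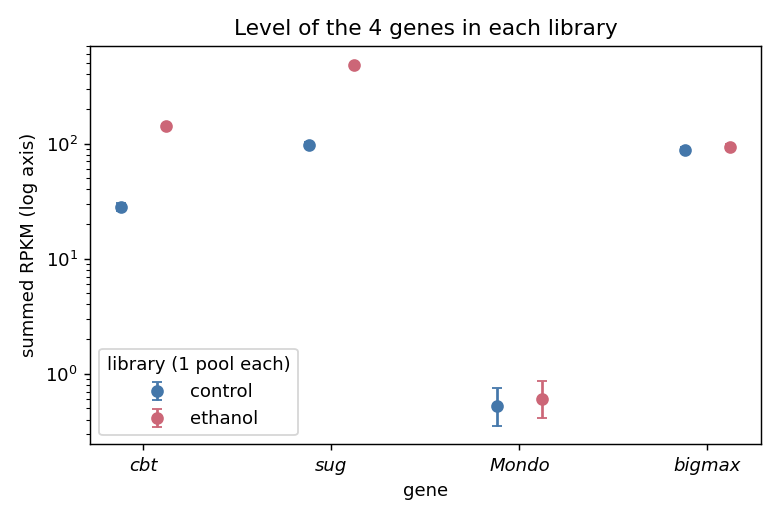
Summed RPKM (vertical log axis) of the 4 genes in the control (blue) and ethanol (red) libraries, 1 pool each; bars are 95% Poisson intervals and are often smaller than the points. cbt goes from 28.3 to 143 and sug from 97.9 to 481, while the points of bigmax (88.7 and 93.1) and of Mondo (0.523 and 0.606) lie close together.

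By the rule used for calls, a gene was higher or lower when it differed at least 2-fold and a ratio of 1 lay outside its interval. Of the 4 factors, 2 were called higher and 0 lower, where 1.75% of all measured genes were called higher and 0.741% lower. Nothing is read from that contrast, since the factors were chosen on these ratios. Among the 7822 measured genes, the log2 ratio of cbt ranked 6 and that of sug 8 from the top. Among the 4045 genes with at least 500 reads over both libraries, they ranked 5 and 7. The middle 95% of all measured genes lay between log2 ratios of -0.66 and 0.85, around a median of 0.049. The ratios of Mondo (0.19) and bigmax (0.071) lay inside that range, at ranks 2425 and 3647, and those of cbt (2.33) and sug (2.30) outside it.

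**Figure D2:**
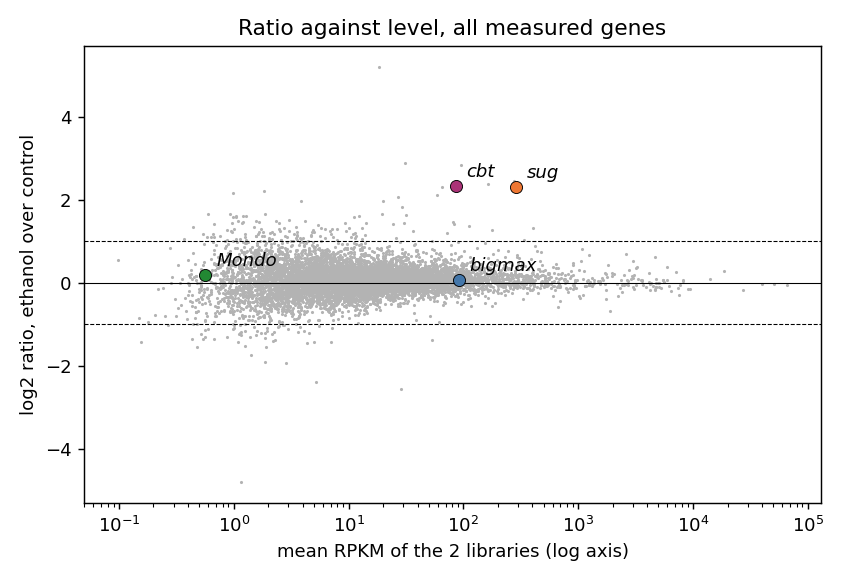
Log2 ratio of ethanol over control reads (vertical axis) against the mean RPKM of the 2 libraries (horizontal log axis) for the measured genes (grey), with the 4 factors in colour and dashed lines at 2-fold. cbt (2.33) and sug (2.30) stand among the few points above 2, bigmax (0.071) lies at a mean level like that of cbt but near 0, and Mondo (0.19) lies at the low end of the level axis.

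Levels of different genes were compared per length, as RPKM (RPM per kilobase of transcript), summed over the accessions of a gene. In the control library the order was sug (97.9 RPKM, Poisson interval 93.1 to 103), bigmax (88.7, 83.2 to 94.5), cbt (28.3, 26.2 to 30.4) and Mondo (0.523, 0.351 to 0.752). The nearest neighbours in that order were sug and bigmax, with a ratio of sug to bigmax of 1.10 and an exact interval of 1.02 to 1.20. By that interval sug was slightly higher, as far as counting error of independent reads goes. After ethanol the order was sug (481, 470 to 492), cbt (143, 138 to 148), bigmax (93.1, 87.3 to 99.3) and Mondo (0.606, 0.411 to 0.860), with no overlap between neighbours. By summed RPKM, cbt and bigmax had thus changed places, which did not hold per covered length, a measure given further on by which cbt was above both sug and bigmax in each library. bigmax was at 3.14 times the RPKM of cbt in the control and at 0.652 times after ethanol. The sug level was 5.17 times that of bigmax after ethanol, while the ratio of sug to cbt was 3.46 and 3.37.

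Placed among all genes by RPKM, sug moved from rank 719 of 10666 detected genes to rank 207 of 10657. The rank of cbt went from 2110 to 553. bigmax stood at ranks 783 and 801, and Mondo at 8595 and 8537. The bigmax level was 169 times that of Mondo in the control and 154 times after ethanol, by summed RPKM. Per kilobase of transcript covered by reads, the most counted transcripts of the 2 genes differed far less, with ratios of 24.4 and 26.6. These ratios carry no interval, and few reads cover little length, which can raise the measure for Mondo. A Mondo transcript with 1 ethanol read already stood at 0.908 RPM per covered kilobase.

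The authors counted reads per transcript accession, and the share of a transcript that its reads covered differed widely among the 4 genes. bigmax has 1 annotated RefSeq transcript (NM_143299, 924 nt), and reads covered 98.4% of it in the control and 98.2% after ethanol. The 1 counted transcript of sug (NM_136982, 1342 nt, of 2 now annotated) was covered over 96.4% and 99.2%. For these 2 factors the counts thus span nearly the whole transcript.

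cbt was counted on 2 accessions, of 3 now annotated. The shorter one, NM_164384 (2044 nt), had 638 control and 3071 ethanol reads, yet only 23.2% and 23.4% of its length was covered. That is about 475 nt and 479 nt, so the number of reads was almost 5 times higher while the covered stretch kept nearly the same length. The longer one, NM_134685 (2610 nt), had 53 and 188 reads, over 57.3% and 66.2% of its length. The shorter transcript rose 5.13-fold (4.71 to 5.60) and the longer one 3.78-fold (2.78 to 5.23), with intervals that overlapped. The share of the shorter one in the cbt reads was 92.3% in the control (exact binomial interval 90.1 to 94.2) and 94.2% after ethanol (93.4 to 95.01), again with overlap. Both cbt transcripts were therefore higher in the ethanol library, and the difference between their ratios was not tested.

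For Mondo, which has 11 annotated RefSeq transcripts, 3 accessions had a row in the tables. NM_001169561 (4752 nt) took 27 control and 26 ethanol reads, over 13.1% and 13.9% of its length. NM_001169565 had 2 and 4 reads, and NM_001169563 had 0 and 1. A count of 0 allows up to 3 reads, or 0.255 RPM in the control library. The Mondo level thus rests on a small stretch of a gene with many annotated transcripts.

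**Figure D3:**
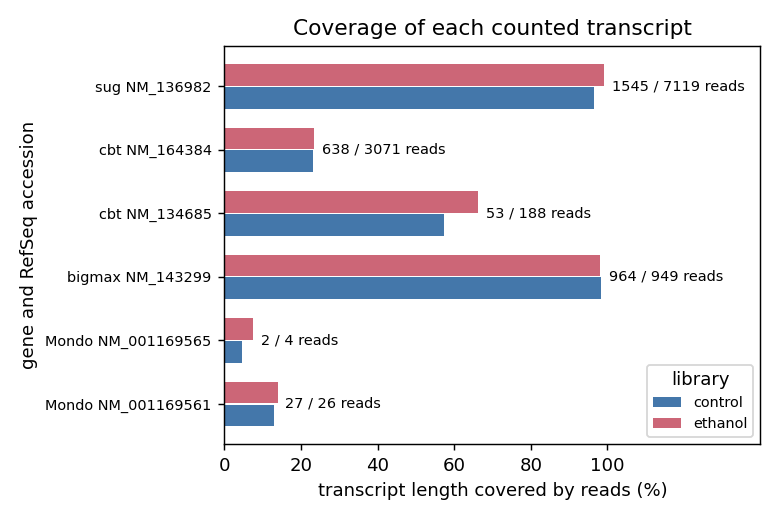
Percent of the transcript length covered by reads (horizontal axis) in the control (blue) and ethanol (red) libraries for each counted transcript of the 4 genes with control reads, with the read numbers (control / ethanol) at the bar ends. The bars of sug and bigmax reach 96.4% or more, those of cbt NM_164384 stop at 23.2% and 23.4%, and those of Mondo at 13.9% or less.

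Low coverage at high read number was common in genes with several counted transcripts. Among accessions with at least 500 control reads, the 990 of genes with 1 row and 1 annotated transcript had a median coverage of 98.2%, and 11 of them were covered by less than 50%. The 348 accessions of genes with several rows had a median of 41.9%, and 218 (62.6%) were covered by less than 50%. In the ethanol library the medians were 98.4% and 44.1%. No source used here says whether reads shared by several transcripts of a gene were left out, and their part in these levels was not tested. If they were left out, the RPKM of cbt and Mondo would be understated. Per kilobase of covered length, a measure chosen after the coverage had been seen, cbt NM_164384 stood at 114 RPM in the control and 581 after ethanol. The sug transcript stood at 102 and 485 by that measure, bigmax at 90.2 and 94.9, and the most counted Mondo transcript at 3.70 and 3.57, so the order of cbt against sug and of cbt against bigmax in the control depended on the length used. The covered-length log2 ratios were 2.34 for cbt and 2.26 for sug.

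The other factors of the same families were far from the ratios of cbt and sug. Of the Max network, the basic helix-loop-helix leucine zipper factors related to Mondo and Mlx, all 3 listed genes were measured and 0 were called. Max, the shared partner of the network, had 516 and 577 reads (1.19-fold, 1.06 to 1.35), and Myc, which drives growth, 1034 and 1093 (1.13-fold, 1.03 to 1.23). Mnt, the antagonist of Myc, had 134 and 106 reads (0.844-fold, 0.648 to 1.10). Max was thus expressed at 43.4 and 51.8 RPKM, under the level of bigmax in both libraries.

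Among the other Krüppel-like and Sp factors, 4 of 7 were measured and 0 were called. luna had 187 and 214 reads (1.22-fold, 0.999 to 1.49), Spps, which acts at Polycomb response elements, 187 and 193 (1.10-fold, 0.896 to 1.35) and Sp1 36 and 26 (0.770-fold, 0.447 to 1.31). The neuronal dendrite factor dar1 was the 1 with an interval below 1, at 115 and 73 reads (0.677-fold, 0.498 to 0.916). btd and hkb were under 50 reads, and Klf15 had no row. Of the Gli and Zic relatives of sugarbabe, ci, the Hedgehog pathway factor, had 741 and 682 reads (0.982-fold, 0.883 to 1.09) and opa 82 and 97 (1.26-fold, 0.931 to 1.71). Neither was called, and lmd was under 50 reads. No relative in these 3 lists reached 2-fold in either direction among its measured members, while cbt and sug were near 5-fold. Nothing is read from that contrast, since cbt and sug were chosen with their ratios known. As 1.75% of all measured genes were called higher and 0.741% lower, 0 calls in such short lists lay near the background.

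Enzymes that act downstream of dietary sugar stood close to the control. Of 22 listed genes of glycolysis, the pentose phosphate pathway, glycerol phosphate and fatty acid synthesis, 21 were measured, 0 were called higher and 0 lower, and the median log2 ratio was 0.068, against 0.049 for all measured genes. The highest ratios were those of Pgd, the phosphogluconate dehydrogenase of the pentose phosphate pathway (2972 and 3543 reads, 1.27-fold, 1.21 to 1.34), and of ATPCL, which makes acetyl-CoA from citrate (1302 and 1488 reads, 1.22-fold, 1.13 to 1.31). The lowest were those of ACC, the acetyl-CoA carboxylase that begins fatty acid synthesis (478 and 267 reads, 0.596-fold, 0.511 to 0.694), and of Pfrx, which sets the level of fructose bisphosphate (243 and 191 reads, 0.838-fold, 0.690 to 1.02). Of the 21 intervals, 5 were above 1 and 4 below, where 23.9% of all measured genes had intervals above 1 and 15.0% below. Those below 1, picked out after their values were seen, were ACC, FASN1 (fatty acid synthase, 0.873-fold), Pgi (0.910-fold) and Desat1 (0.931-fold). Those above were Pgd, ATPCL, AcCoAS (1.19-fold), Taldo (1.14-fold) and Gpdh1 (1.07-fold).

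Of 9 listed genes that are high in fasting, 8 were measured, 0 were called higher and 1 was called lower. Pepck1, the phosphoenolpyruvate carboxykinase gene that cabut is known to repress, had 393 and 648 reads. Its ratio was 1.76, with an interval of 1.55 to 1.999, and did not reach 2-fold. Pepck2 had 168 and 131 reads (0.832-fold, 0.657 to 1.05). The lipase gene bmm had 171 and 229 reads (1.43-fold, 1.17 to 1.75). Hsl, the hormone-sensitive lipase gene, fell from 66 to 23 reads (0.372-fold, 0.221 to 0.606), a call that was lost with 1 RPKM added to both levels (log2 ratio -0.70 in place of -1.43). Its main accession, NM_137619, with 57 and 18 reads, was covered over 8.13% and 7.51% of its length. The list median was a log2 ratio of 0.31.

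Of 14 listed digestive genes, which encode sugar and starch digesting enzymes and the gut lipase mag and are of the kind that sugar lowers through sugarbabe in the gut, 8 were measured and 0 were called. The median log2 ratio was -0.15. Ratios ran from Mal-A6 (58 and 34 reads, 0.625-fold, 0.397 to 0.971) and Mal-B1 (137 and 109, 0.849-fold, 0.654 to 1.10) to tobi (123 and 110, 0.954-fold, 0.731 to 1.24) and Mal-A5 (546 and 537, 1.05-fold, 0.930 to 1.18). The 5 others with a row had at most 8 reads in either library, Mal-A8 had no row, and the gut markers were near 0 as given above.

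The list of sugar signals held the 1 pathway gene called higher. Of 22 listed kinases, nuclear receptors, hormones and members of the Activin branch, 17 were measured, 1 was called higher and 0 lower, with a median log2 ratio of 0.11. dawdle (daw) encodes an Activin-like ligand that Mondo and Mlx are known to activate in larvae. It rose from 112 to 227 reads (2.16-fold, 1.72 to 2.74), a call that was lost with 1 RPKM added (log2 ratio 0.94). Of its 2 counted transcripts, NM_164503 had 13 and 56 reads (4.60-fold, 2.48 to 9.16) and NM_078737 had 99 and 171 (1.84-fold, 1.43 to 2.38). These intervals, with each read taken as independent, were close but did not overlap (2.38 against 2.48). The difference between the 2 ratios was not tested. The log2 ratio of the gene was 1.12 by summed RPKM and 1.11 by summed reads, but 0.88 on its most counted transcript alone.

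CCHa2, a peptide hormone gene that responds to nutrients, followed with 120 and 214 reads (1.90-fold, 1.51 to 2.40), which did not reach 2-fold. Its most counted transcript was at 2.05-fold (87 and 167 reads, 1.57 to 2.68). The insulin-like peptide genes Ilp6 (1.47-fold, 1.26 to 1.72), Ilp5 (1.30-fold, 1.14 to 1.48), Ilp3 (1.14-fold, 1.01 to 1.29) and Ilp2 (1.08-fold, 0.976 to 1.19), chosen with their values known, were not called. Of these intervals, only that of Ilp2 included a ratio of 1. The lowest ratios were those of Smox, the Smad of the Activin branch (1919 and 1525 reads, 0.848-fold, 0.792 to 0.907), and ERR (159 and 137, 0.919-fold, 0.726 to 1.16). The receptor genes of dawdle, babo (1.04-fold) and put (0.996-fold), had intervals that included 1. Of the 17 intervals in this list, 8 (47.1%) lay above 1 and 1 (5.88%) below, where the shares over all measured genes were 23.9% and 15.0%. Among the 8 were also Hnf4 (1.46-fold), AkhR (1.44-fold) and SNF4Agamma (1.42-fold), named with their values known. Here, as for the enzymes and markers, such shares are not a like comparison, since intervals narrow as reads increase. They also depend on scaling: the Ilp3 interval began at a log2 ratio of 0.017, and TMM scaling moved the median of all measured genes by -0.050.

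Sugar carriers and trehalose enzymes had 5 of 9 members measured and 0 called, with a median log2 ratio of -0.26. Tps1, which makes trehalose, the main blood sugar of flies, had 19213 and 23175 reads (1.29-fold, 1.26 to 1.31), and Glut1 had 142 and 106 (0.796-fold, 0.613 to 1.03). The carrier gene sut1, chosen with its values known, had 201 and 151 (0.801-fold, 0.645 to 0.995). Of the JNK pathway, with which cabut acts in embryonic dorsal closure, 7 of 7 were measured and 0 called (median -0.0098). puc, the JNK phosphatase and a common readout of the pathway, had 1171 and 1393 reads (1.27-fold, 1.17 to 1.37), and kay, the fly Fos gene, 596 and 460 (0.823-fold, 0.727 to 0.931). Over all 9 pathway lists, 75 of 96 genes were measured, and 1 of them (1.33%) was called higher and 1 (1.33%) lower. Over all measured genes the shares were 1.75% and 0.741%, so with 1 gene in each direction the lists lay near the background. The median log2 ratio of the 75, 0.056, was close to that of all measured genes.

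**Figure D4:**
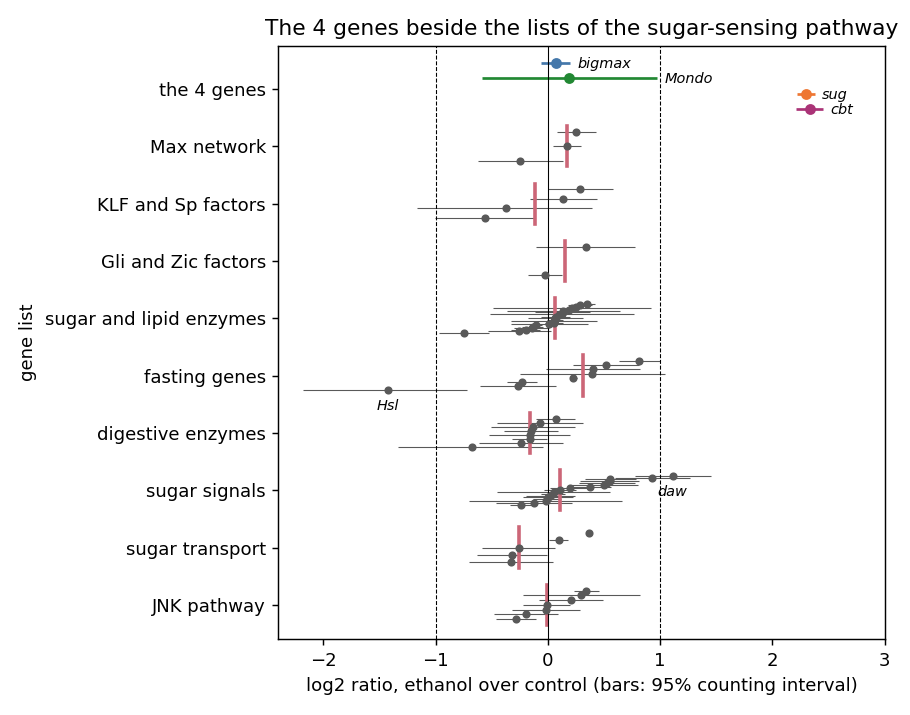
Log2 ratio of ethanol over control reads (horizontal axis) with 95% counting intervals for the 4 factors (top) and the 75 measured genes of 9 pathway lists; red lines are list medians and dashed lines mark 2-fold. cbt (2.33) and sug (2.30) lie to the right of every list gene, and the names mark the called list genes daw (1.11) and Hsl (-1.43).

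The genes whose ratios were nearest to those of cbt and sug were each other and a set that includes genes of immune peptides. With 2 libraries, likeness could be measured only as the difference in log2 ratio, among the 4045 genes with at least 500 reads. For both cbt and sug the nearest gene was BomBc1, a bomanin immune peptide gene (121 and 558 reads, 4.92-fold, 4.03 to 6.04). Each factor was the other's second nearest. They were followed in both cases by CG3348 (329 and 1609 reads, 5.22-fold, 4.63 to 5.89), Mtk, the antimicrobial peptide metchnikowin (273 and 1390, 5.43-fold, 4.77 to 6.21), and AttC, attacin C (225 and 909, 4.31-fold, 3.72 to 5.01). The log2 ratio of AttC, the least near, differed from that of cbt by -0.22 and from that of sug by -0.19. Since the log2 ratios of cbt and sug differed by only 0.034, their nearest genes were bound to be nearly the same. The lists of cbt and of sug are thus not separate results.

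In the genome, the genes beside cbt and sug did not share their ratios. For each factor, the 3 genes with a row in the tables on each side in gene order were taken from the Release 6 annotation, a step chosen after the data had been seen. Of these 24 neighbours, 15 were measured, 1 was called higher and 0 lower. Over all measured genes 1.75% were called higher and 0.741% lower, so nothing is read from 1 call among 15. The median log2 ratio of the 15 was 0.049. Beside cbt, the nearest were ush, a GATA cofactor gene that overlaps cbt on the opposite strand (238 and 201 reads, 0.901-fold, 0.743 to 1.09), and lwr, the SUMO conjugating enzyme gene (250 and 296 reads, 1.26-fold, 1.06 to 1.501). Beside sug they were CG13319, which overlaps sug on the same strand (162 and 167 reads, 1.10-fold, 0.881 to 1.37), and CG17019 (677 and 646 reads, 1.02-fold, 0.912 to 1.14). No source used here says whether strand was used in counting, so reads of overlapping genes cannot be told apart. For CG13319 and sug, which lie on the same strand, the use of strand would not separate them either.

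Mondo overlaps the taste receptor gene Gr39a on the opposite strand, which had 19 and 11 reads and was under 50. The nearest gene on the other side, CG8671, had 107 and 137 reads (1.37-fold, 1.05 to 1.78). Beyond Gr39a on the first side, crc, the fly ATF4 gene, had 3957 and 3838 reads (1.03-fold, 0.989 to 1.08). bigmax overlaps CG3368 on the opposite strand (557 and 521 reads, 0.998-fold, 0.884 to 1.13). The neighbour called higher was CG3348, which lies 2 genes from bigmax with Hmu between them (3305 and 2781 reads, 0.898-fold, 0.853 to 0.944). bigmax itself was at 1.05-fold, so the large ratio of CG3348 was not shared by the 2 genes measured next to it on that side.

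**Figure D5:**
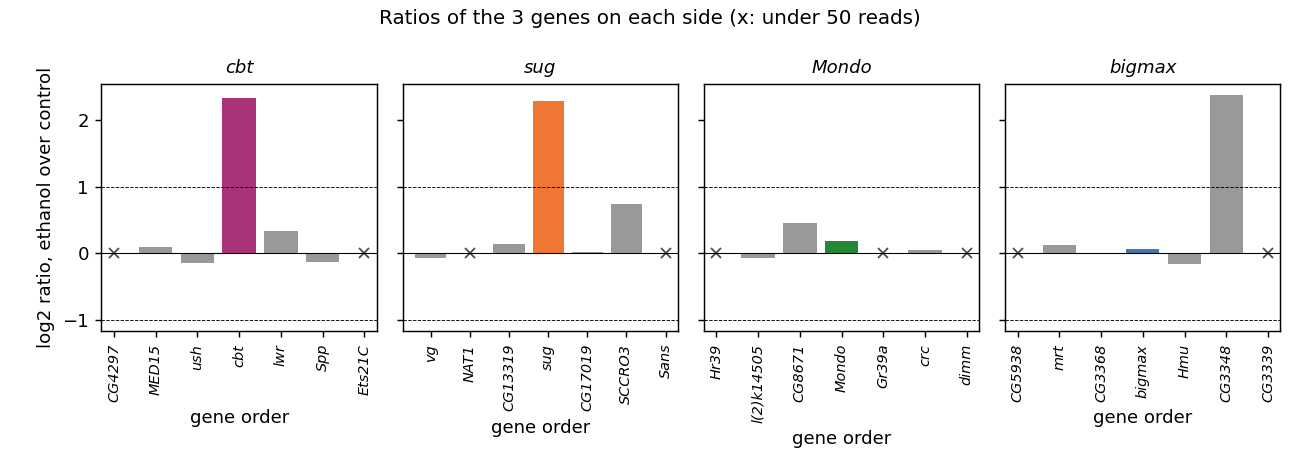
Log2 ratio of ethanol over control reads (vertical axis) for each factor (coloured bar) and the 3 genes with a row on each side, in gene order (horizontal axis); crosses are genes under 50 reads and dashed lines mark 2-fold. cbt (2.33) and sug (2.30) stand alone among their neighbours, and next to bigmax (0.071) the tall bar is CG3348 (2.38).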

How the data were processed

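Poly(A) RNA was sequenced from TruSeq libraries, per the labels' protocols, with 1 library per group. Per the submitters' processing notes, BDGP 5 was the genome build. No aligner or counting tool is named in the sources used here. Per the file headers, the authors deposited a count of unique reads per RefSeq accession, the percent of its length covered, RPKM, and a table of the series with log2 ratios. All 15090 rows of that table held the counts of the sample files, and the deposited log2 ratio equalled that of its RPKM columns within 0.001.

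Accessions were matched to Release 6 RefSeq genes by name (14521 of 15090), and reads summed per gene. Ratios were scaled by library totals. A test across replicates cannot be made from single libraries, and edgeR served for TMM scaling only. Levels of 0 allow up to 3 reads (0.255 RPM in the control, 0.272 in the ethanol library). They and the intervals hold counting error only. They take reads as independent molecules, which reads of a pair or reads without molecular identifiers need not be. The functions were tested on simulated data. The members and lists were chosen with earlier results of these data known. Pyk and apoLTP of the lists were matched through synonyms. The named genes were, in the 3 factor family lists, every measured member. In the other pathway lists they were the called genes and the 2 highest and 2 lowest, or 1 of each in lists with fewer than 8 measured. The 5 genes with at least 500 reads nearest in log2 ratio to cbt and to sug were also named. Most genes outside this rule are marked where they stand or bear on a factor directly. The cell type markers given with ratios, and babo and put, are not marked and were named outside this rule as well. Marker lists of neurons (3 measured, median log2 ratio -0.0094), glia (5, 0.087) and hemocytes (3, -0.31) held 0 calls. The glia list held 2 intervals above 1 and 1 below, with ratios from Gs2 (0.673-fold, 0.642 to 0.705) to Eaat1 (1.47-fold, 1.27 to 1.70). The markers para and moody had no row, and brp was under 50 reads. Alternatives were 3 other scalings, floors of 1, 20 and 200 reads, pseudocounts of 0.1 and 1 RPKM, lowess trends (fraction 0.3) on level or length removed, summed RPKM, single accessions, 1.5-fold and 4-fold thresholds and a 99.9% interval. Python 3.11.15, SciPy 1.17.1, statsmodels 0.14.6, matplotlib 3.10.9 and edgeR 4.0.16 were used.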

Additional observations from a re-analysis of the deposited data

How the results depend on the processing

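The log2 ratio of cbt ranged from 2.25 to 2.36 over 10 alternatives, and that of Mondo from 0.039 to 0.30, all inside their counting intervals. With the length trend removed, sug stood at 2.18 and bigmax at -0.066, outside their intervals, and 9 other alternatives of each stayed inside. Among those 9, summed RPKM and single accessions could not differ from the main value, since each of these genes has 1 counted transcript. The 3 other scalings moved the median of all measured genes by at most 0.064. The share of NM_164384 in cbt after ethanol was 95.4% by RPKM. Genes called higher and lower were 259 and 127 with a floor of 20 reads, 38 and 10 with 200, and 347 and 202 with 1. They were 51 and 8 with 1 RPKM added, 467 and 224 at 1.5-fold, and 12 and 3 at 4-fold. On single accessions, 89 were lower. Pathway list members called higher were 0 with 1 RPKM added, 3 at 1.5-fold (daw, CCHa2 and Pepck1) and 0 at 4-fold. Those called lower were 0 with a floor of 200 reads, 0 with 1 RPKM added, 3 at 1.5-fold and 0 at 4-fold. The call of daw was lost with 1 RPKM added (log2 ratio 0.94) and on its most counted accession (0.88), and that of Hsl with 1 RPKM added (-0.70). With other floors the median of the Krüppel-like list turned positive (0.14 to 0.21), and that of the Gli list was -0.027 to 0.34. With the length trend removed, that of the fasting genes was 0.18. The cause of these shifts was not tested. No paired analysis was possible because each group has 1 library. Of the 4 factors, Mondo had the fewest reads, at 60 in all. The parts of depth and of how reads were assigned in that number were not tested.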
